A study of Homo sapiens with 2 samples.

Results

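The vanins and the enzymes of coenzyme A synthesis were examined in SAS cells and in eSAS cells, as 10 genes of the 30484 gene names on the microarray. They comprised the vanins VNN1, VNN2 and VNN3, the pantothenate kinases PANK1, PANK2, PANK3 and PANK4, and the later enzymes PPCS, PPCDC and COASY. The group was chosen by the log2 ratio of VNN1 between the arrays, after which its family and the pathway it feeds were added whole, and every probe named for a member was taken. They held 16 of the 41000 probes, each spotted once, and none of these spots carried a software mark for an uneven or outlying spot.

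SAS is an established line from a human tongue squamous cell carcinoma, kept in DMEM with fetal bovine serum, penicillin and streptomycin. eSAS is the population left after 5 rounds in which spheroids of SAS cells, grown on low-adhesion plates, were retained on the removable mesh of a device named Spheroid Catch, so it is a selected population. Total RNA from each, taken during logarithmic growth, was labelled with Cy3 and hybridised to 1 array per population. Neither population had a second array, so the populations could not be tested against each other, and precision is limited by the 2 arrays.

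Vanins are pantetheinases: they cut pantetheine, a breakdown product of coenzyme A, into pantothenate, which is vitamin B5, and cysteamine. VNN1 sits on the outer cell surface and is known from liver, gut and kidney epithelium, and VNN2 is best known from neutrophils. Pantothenate kinases commit pantothenate to coenzyme A, the carrier of acetyl and fatty acyl groups. PPCS then adds cysteine, PPCDC removes a carboxyl group, and COASY carries out the closing pair of reactions.

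The values are the processed signal of the scanner software, a linear intensity from which background had been subtracted. A difference between the arrays is given as a log2 ratio of eSAS over SAS after each array was divided by its 75th percentile, 1242 for SAS and 1196 for eSAS. Each signal is followed by the error that the software assigned to the spot, which covers the measurement of that spot and not the variation between cultures. Of the probe spots, 69.4% for SAS and 67.5% for eSAS passed the software's own criterion of being well above background, and the lowest such signals were 12.8 and 15.2. Across probes spotted repeatedly, the pooled SD of the log2 ratio between spots was 0.25 for signals under 50 (10 probes), 0.10 for signals from 50 to 500 (45 probes) and 0.043 above that (156 probes). Probes bind with different strength, so differences were taken only between arrays, for the same probe. Signals of different probes were set beside each other only to call a probe brighter or dimmer, and were summed in marker lists.

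VNN1 was higher in eSAS cells on both of its probes, while VNN2 and VNN3 were not well above background on either array. VNN1 probe 1 (A_23_P255345) lies at chr6:133046078-133046137 of hg18, on the minus strand. Its signal was 56.8 ± 6.73 for SAS and 575 ± 57.6 for eSAS. That is a log2 ratio of 3.39 with a software error of 0.22, or 10.5-fold. VNN1 probe 2 (A_24_P337700) lies at chr6:133044836-133044895 on the same strand. It read 15.1 ± 3.31 for SAS, close to the lowest signal that counted as well above background there, and 115 ± 12.0 for eSAS. Its log2 ratio was 2.98 with a software error of 0.35, or 7.89-fold. The probes thus differed by 0.41 on the log2 scale, against a software error of 0.42 for that difference, and their mean was 3.19, or 9.10-fold. Both lie in the part of chromosome 6 that the array assigns to VNN1; whether each falls in coding sequence or UTR was not analysed here. RNA came from whole cultures, so more VNN1 RNA per cell and more cells with VNN1 RNA cannot be told apart.

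**Figure D1:**
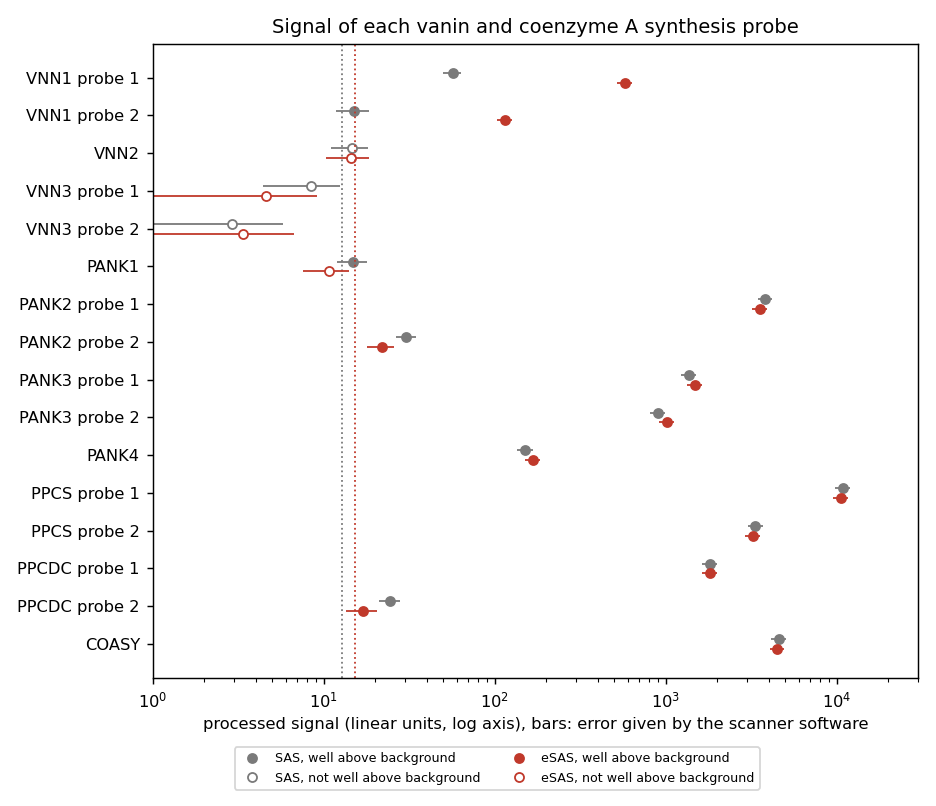
Processed signal (linear units on a log axis) of the 16 probes on the SAS array (grey) and the eSAS array (red), with the error given by the scanner software. Filled points were well above background and open points were not, dotted lines mark the lowest signal that was (12.8 for SAS, 15.2 for eSAS), and bars that reach 0 run off the left edge. The VNN1 probes are the pair whose points stand apart between the arrays, at 56.8 and 575 and at 15.1 and 115.

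VNN1 probe 1 ranked 3 from the top among the 26659 probes that were well above background on both arrays, and 7 probes had a higher log2 ratio than VNN1 probe 2. Since these ratios chose the gene, its rank is a description of how it was found. Of the 13 member probes that passed this criterion on either array or on both, 2 were at least 2-fold higher in eSAS cells, both of VNN1, where 1.83% of all 28439 such probes were. No member probe was at least 2-fold lower, where 1.97% of all were. At 10-fold, 1 member probe was higher, where 0.0422% of all were. Nothing is read from these counts, since the group was chosen by VNN1. Among 5334 genes with 2 or more probes measured on both arrays, 58 had at least 1 probe and 19 had every probe at least 2-fold higher, VNN1 among them.

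The spots of the VNN1 probes lay in rows 513 and 263 of the array, far apart from each other and outside rows 450 to 510, which held 183 of the 194 uneven spots of the SAS array. The rows beyond 510 held 9 uneven probe spots for SAS and 1 for eSAS, and the 975 probes measured there had a median log2 ratio of -0.0039. Of the 8 spots nearest to VNN1 probe 1, 5 were measured on both arrays, and their log2 ratios ran from -0.47 to 0.29 with a median of -0.11. The 7 measured around VNN1 probe 2 ran from -0.25 to 0.20 with a median of 0.057. These spots did not share the difference at VNN1, which is no finding, since VNN1 was chosen by its ratio. A local fault of the array was not tested.

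How large the VNN1 difference was depended on the background correction, and its SAS signals were low. Without any correction the folds were 5.88 for probe 1 and 2.82 for probe 2. With plain subtraction of the local background, a setting chosen after seeing the data, they were 8.20 and 5.26. The smallest folds, 4.97 and 2.42, came from normexp, a model-based correction, fitted after spots with a marked, uneven local background had been left out. Each normexp fit also added a constant of 50 to every corrected signal. That constant is close to the processed SAS signal of probe 1 (56.8) and above that of probe 2 (15.1). By itself it makes the ratios of dim probes smaller, and its part in these folds was not tested. Both probes were over 2-fold higher in eSAS cells under all 15 alternative settings tried on them. Settings that changed only the detection rules, the marked spots, the rows left out or the source table could not move these folds.

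**Figure D2:**
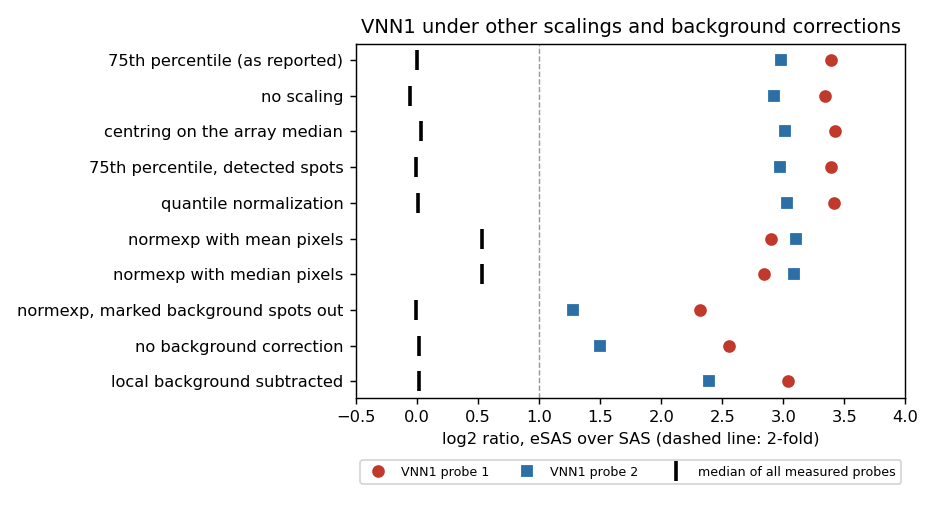
Log2 ratio of eSAS over SAS of the VNN1 probes under each scaling and background correction, with the median of all probes measured on both arrays as a black bar. Both probes lie right of the dashed 2-fold line in every row, from 1.27 for probe 2 to 3.43 for probe 1, and the median of all probes moved to 0.53 under normexp fitted on all spots.

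VNN2, whose product is also called GPI-80, had 1 probe at chr6:133106859-133106918. It read 14.6 ± 3.58 for SAS and 14.5 ± 4.07 for eSAS. VNN3, which the current RefSeq table lists as the transcribed pseudogene VNN3P, had 2 probes. That at chr6:133087471-133087530 read 8.44 ± 4.04 and 4.58 ± 4.56, and that at chr6:133097151-133097210 read 2.90 ± 2.88 and 3.36 ± 3.34, for SAS and eSAS. None of the 3 probes was well above background on either array, so no fold is given for VNN2 or VNN3. The eSAS signals of all 3 lay under 15.2, the lowest that counted as well above background on that array, so no rise past this limit was seen. Smaller differences in either gene were not detectable at these signals, and low signal differs from a measured absence of RNA.

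The vanins stand side by side on chromosome 6, and the array holds 27 probes of other transcripts within 1 Mb of them. Of these, 13 were measured on both arrays and 14 were not well above background on either. None of the 13 was 2-fold apart, where 97.8% of all probes measured on both arrays lay within 2-fold. Their log2 ratios ran from -0.085 to 0.73 with a median of 0.14. The nearest measured on each side were TAAR2, a trace amine receptor gene, at 0.53 (50.8 for SAS and 70.7 for eSAS), and C6orf192, now SLC18B1, a polyamine transporter, at 0.15 (3972 and 4230). Next to these came TAAR5 at -0.058, BC041996 at 0.49, and RPS12, a ribosomal protein gene with many near-identical copies elsewhere, at 0.14. The spot of BC041996 lies in row 505, inside the rows with uneven spots on the SAS array. Farther out, STX7, a syntaxin of endosomes, had 0.062, MOXD1, a relative of dopamine beta-hydroxylase, had 0.61, and CTGF, now CCN2, a matricellular growth factor, had 0.12. ENPP1, a surface enzyme that can cleave coenzyme A, had 0.54 on 1 probe, and its other probe was not well above background. LOC442260 had -0.048, BC041459 had -0.085, CN358250 had 0.020 and the probe named OR2A7, an olfactory receptor gene that RefSeq now places on another chromosome, had 0.73 from signals of 22.4 and 35.7. VNN2 and VNN3, the closest genes, gave no ratio. VNN1 was chosen by its ratio, so its place above its neighbours is no finding.

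**Figure D3:**
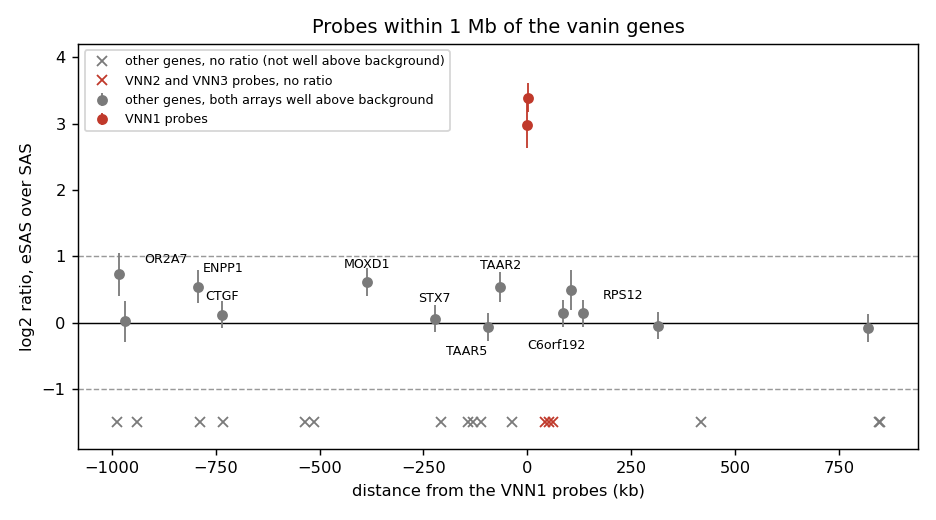
Log2 ratio of eSAS over SAS of the 32 probes within 1 Mb of the vanin genes, by distance from the VNN1 probes in kb, with the software error as bars and dashed lines at 2-fold. The VNN1 probes lie at 2.98 and 3.39 and the 13 others with a ratio between -0.085 and 0.73, and crosses along the bottom mark probes that were not well above background on either array.

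The enzymes of coenzyme A synthesis had near-equal values in both populations with the 75th-percentile scaling. Of the 7 genes, 6 were measured on both arrays, and the median of their log2 ratios was 0.015, beside -0.0012 over all 19467 genes measured so. Of their 11 probes, 10 were measured on both arrays, with log2 ratios from -0.48 to 0.24, and 6 of the 10 lay above 0. The 8 probes with a SAS signal of at least 100 ran only from -0.056 to 0.24, against software errors of 0.20 to 0.21. In 3 of the 10 the ratio exceeded its own software error. No enzyme probe reached 2-fold with this scaling, where 97.8% of all measured probes lay within 2-fold. Under normexp fitted on all spots with mean pixels, PANK4 stood at 1.56, PPCDC at 1.29 and PANK2 at 1.08, which passes 2-fold, and PPCS at -0.43 and COASY at -0.39. That setting moved the median of all probes to 0.53. Relative to it, PANK4 stood at 1.03, PPCDC at 0.76 and PANK2 at 0.54. On the other side of it stood PPCS at -0.96, COASY at -0.92 and PANK3 at -0.30. With the spots of marked local background left out of the fit, PANK4 was at 0.14, PPCDC at -0.015 and PANK2 at -0.14. PANK3 was then at 0.20, PPCS at 0.013 and COASY at 0.044.

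The pantothenate kinases carry out the opening, rate-limiting step. PANK1 had 1 probe, at chr10:91334070-91334129, which read 14.9 ± 2.98 for SAS and 10.8 ± 3.23 for eSAS. It was well above background on the SAS array only, and since its SAS signal was under the detection limit of the eSAS array, no fold is given. PANK2, the kinase found in mitochondria and mutated in a neurodegeneration with brain iron accumulation, had 2 probes that gave different ratios. PANK2 probe 1, which the array places over 4507 bases at chr20:3847396-3851902 on the plus strand, where most member probes span 60, read 3823 ± 382 and 3541 ± 354, a log2 ratio of -0.056 ± 0.20. PANK2 probe 2, at chr20:3854912-3854971 and named only by the mRNA AL713654, read 30.4 ± 4.06 and 21.8 ± 3.84, a log2 ratio of -0.43 ± 0.32. The probes differed by 0.37, and the lower value came from the dimmer probe.

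PANK3, a cytosolic kinase, had close values on both probes. Probe 1 at chr5:167916908-167916967 read 1364 ± 136 for SAS and 1475 ± 148 for eSAS, a log2 ratio of 0.17 ± 0.20. Probe 2 at chr5:167915450-167915509 read 897 ± 89.8 and 1019 ± 102, a log2 ratio of 0.24 ± 0.20. PANK4, a relative whose product acts as a phosphatase on pathway intermediates rather than as a kinase, had 1 probe at chr1:2431990-2432049. It read 151 ± 15.3 and 168 ± 17.1, a log2 ratio of 0.21 ± 0.21. The values of PANK3 and PANK4 exceeded those of 83.2% and 83.6% of all measured genes, at about 1.15-fold each. Of all measured probes, 97.8% lay within 2-fold.

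PANK1, PANK2 and PANK3 also carry within their bounds the genes of closely related microRNAs, short RNAs that repress mRNAs through their seed, which makes 3 of the 4 kinase genes. They are shown as the sequences that tie these kinase genes to each other beyond the pathway. The levels of the mature microRNAs were not analysed here. The sequences are from RefSeq (GRCh38.p14), with the seed, bases 2 to 8 from the 5′ end, in capitals.
hsa-miR-103a-3p: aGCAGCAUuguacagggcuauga
hsa-miR-107: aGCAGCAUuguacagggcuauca
Hsa-miR-103a-3p is encoded at chr20:3917541-3917563 (plus strand, MIR103A2 in PANK2) and at chr5:168560904-168560926 (minus strand, MIR103A1 in PANK3). Hsa-miR-107 is encoded at chr10:89592756-89592778 (minus strand, MIR107 in PANK1). The seeds are the same, and the 23 bases differ by 1, G22C, counted from the 5′ end with the base of hsa-miR-103a-3p first.

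PPCS, which joins cysteine to phosphopantothenate, showed the smallest differences of all. Its probe at chr1:42698496-42698555 read 10910.2 ± 1091 for SAS and 10577 ± 1058 for eSAS, a log2 ratio of 0.0096 ± 0.20. Its probe at chr1:42698028-42698087 read 3346 ± 335 and 3221 ± 322, a log2 ratio of -0.00021 ± 0.20. COASY, the bifunctional enzyme that completes coenzyme A, had a probe over chr17:37971089-37971238 that read 4581 ± 458 and 4490.4 ± 449. Its log2 ratio was 0.026 ± 0.20.

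PPCDC, the decarboxylase between them, gave a split reading like that of PANK2. Probe 1 at chr15:73128887-73128946 read 1820 ± 182 and 1818 ± 182, a log2 ratio of 0.054 ± 0.20. Probe 2 at chr15:73129536-73129595 read 24.6 ± 3.55 and 17.0 ± 3.48, a log2 ratio of -0.48 ± 0.36. The probes differed by 0.53, and the dimmer probe was again the lower. With the brighter probe in place of the mean over probes, PANK2 stood at -0.056 and PPCDC at 0.054, and the median of the enzymes was 0.040.

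**Figure D4:**
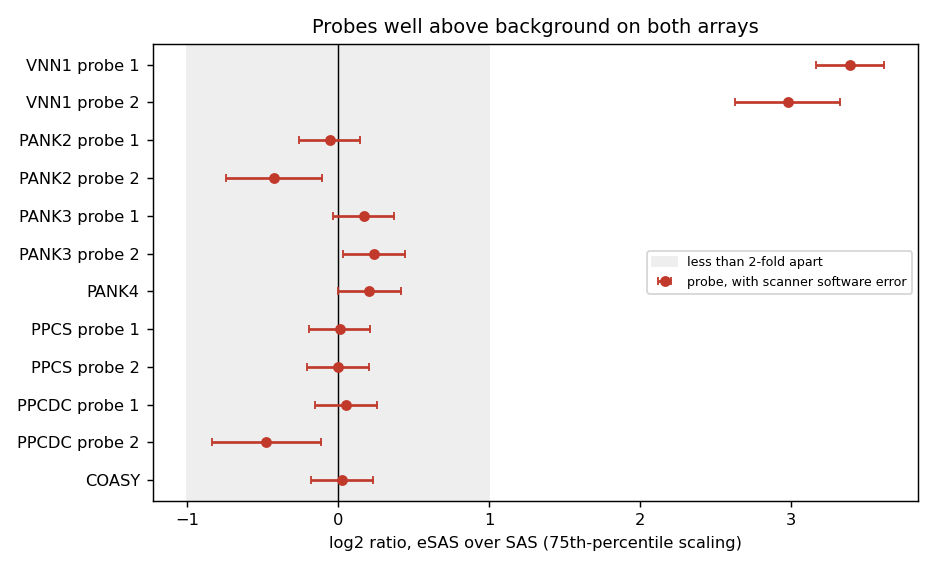
Log2 ratio of eSAS over SAS of the 12 member probes that were well above background on both arrays, with the software error of each as bars and the grey band marking less than 2-fold. The VNN1 probes lie at 3.39 and 2.98, and the 10 probes of coenzyme A synthesis lie between -0.48 and 0.24.

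Downstream of the vanins, cysteamine is oxidised by ADO to hypotaurine, and cysteine reaches the same product through CDO1 and CSAD. CDO1, cysteine dioxygenase, was at least 4.10-fold higher in eSAS cells. Its single probe read 2.60 for SAS, not well above background, and 50.7 for eSAS, so the fold is a lower bound set by the detection limit of the SAS array. ADO read 454 and 423, a log2 ratio of -0.050. The taurine transporter SLC6A6 had 4 probes, of which the brightest read 1581 and 1600.3, and their log2 ratios ran from 0.068 to 0.41. Of 6 genes of this route and its relatives on the array, 5 were detected on at least 1 array. Of their 8 detected probes, 1 was at least 2-fold higher (CDO1) and 0 were 2-fold lower, where 1.83% and 1.97% of all probes were, and nothing is read from so small a count. The median over the 4 genes measured on both arrays was 0.10.

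Genes that bring in the vitamin, move coenzyme A or act on it afterwards had 11 detected probes. None was 2-fold apart, which is near the share of all probes, 1.83% higher and 1.97% lower. SLC5A6, the sodium-coupled carrier that takes up pantothenate and biotin, had log2 ratios of 0.17 to 0.32 on its 3 probes, the brightest at 724 and 854. SLC25A16, a mitochondrial carrier linked to coenzyme A, read 372 and 601, a log2 ratio of 0.75, from a spot in row 480, inside the rows with uneven spots on the SAS array. SLC25A42, the remaining transport gene, went the other way and was named after its values were seen. Its detected probe, in row 473 and so inside the same rows, read 57.8 and 35.0, a log2 ratio of -0.67. The median over the 3 transport genes was 0.26. Among genes of coenzyme A breakdown and their relatives, DCAKD, which resembles the dephospho-coenzyme A kinase part of COASY, had 0.16 to 0.37 on 3 probes, the brightest at 2691 and 3126. NUDT8, a hydrolase of coenzyme A, read 1625 and 2181, a log2 ratio of 0.48, from a spot in row 462, also inside the rows with uneven spots. NUDT19, another such hydrolase, had 0.0057, and the median over the 4 genes measured on both arrays was 0.37.

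The phosphopantetheine arm of coenzyme A is passed on to carrier proteins. AASDHPPT, the transferase that does this, had log2 ratios of 0.022 and 0.089 on the probes that were kept, the brighter at 4196 and 4104. NDUFAB1, the mitochondrial acyl carrier protein, read 21911 and 21124, a log2 ratio of 0.0016. Over 5 genes measured the median was 0.055. None of their probes was 2-fold apart, which is near the share of all probes, 1.83% higher and 1.97% lower.

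VNN1 is known as a target of the nuclear receptor PPAR alpha in liver, so PPARA and other targets were listed beside it. PPARA, which was named after its values were seen, had log2 ratios from -0.13 to 0.24 on 4 probes with SAS signals from 35.3 to 118. Among the 15 genes, ANGPTL4, an inhibitor of lipoprotein lipase, was lower in eSAS cells, with 309 for SAS and 50.3 for eSAS, a log2 ratio of -2.56. CYP4A11, a fatty acid hydroxylase, had 1 probe not well above background on either array and another that read 10.71, not well above background, and 49.4, which is at least 4.00-fold higher. CPT1A, which loads fatty acids for entry into mitochondria, had probes that disagreed, 1.15 from a spot in row 499 and -0.61 from a spot in row 187. ACADVL and HADHA, enzymes of fatty acid oxidation, had -0.13 and, on 2 probes, -0.087 and -0.25. Of the list's 16 detected probes, 2 were at least 2-fold higher, those of CYP4A11 and CPT1A, where 1.83% of all probes were, and 1 was at least 2-fold lower, where 1.97% were. With so few probes nothing is read from these counts. No probe of 6 of the genes was well above background, and the median over the 8 genes measured on both arrays was -0.058.

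**Figure D5:**
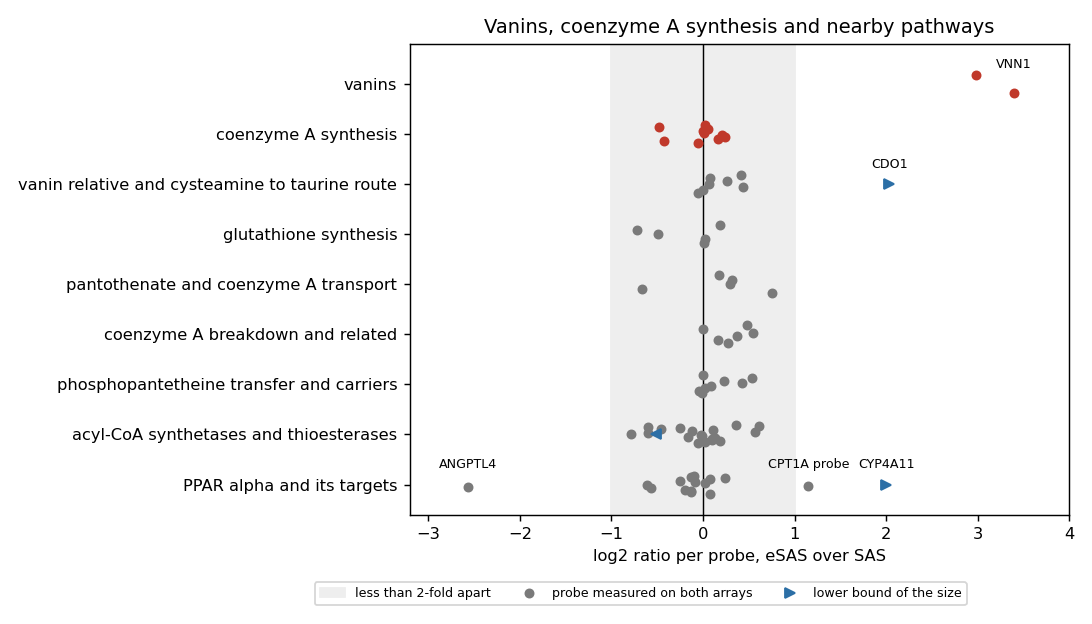
Log2 ratio of eSAS over SAS per probe for the vanins and the coenzyme A enzymes (red) and for 7 lists of genes around them (grey), with triangles for lower bounds. Outside the grey band of less than 2-fold lie VNN1, CDO1, CYP4A11, a CPT1A probe and ANGPTL4, and all 10 measured probes of coenzyme A synthesis lie inside it.

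Most of the listed leukocyte, hepatocyte and kidney tubule markers were not well above background, and no markers of gut epithelium were listed. Of 11 leukocyte markers, 2 were well above background, CD68 at 717 and 752 and CD14 at 215 and 233, and the summed signal of the detected probes was 932 for SAS and 985 for eSAS. PTPRC, which defines leukocytes, was not well above background on either array, nor were the other 8. Of 7 hepatocyte and kidney tubule markers, 3 were detected, with SERPINA1 at 4935 and 5237 and CUBN at 887 and 1038, and a sum of 5866 and 6325. ALB, which defines hepatocytes, was not well above background on any of 3 probes. The fibroblast list summed to 15.1 and 29.6, with LUM at least 2.40-fold higher from 3.21 and 29.6 in row 461, COL1A1 at 15.1 and 4.90, and COL1A2 not well above background. The part of such cells in the VNN1 difference was not tested. All 8 squamous epithelial markers were well above background on both arrays, with KRT18 at up to 149599 and 165171 and KRT8 at up to 66318 and 71233. The median log2 ratio over the 8 genes was -0.44, with 3 of the 8 above 0. KRT5 at -0.63, KRT17 at -0.55, CDH1 at -0.48 and TP63 at -0.40 and -0.40 on 2 probes were named after their values were seen. KRT14, a basal keratin, was lower in eSAS cells on both probes, by log2 ratios of -6.58 and -1.23 that differ widely from each other.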

How the data were processed

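SAS and eSAS RNA was hybridised to 2 arrays of 1 slide, 1 per population. The authors deposited the output of Agilent Feature Extraction 10.7.3.1, with linear intensity values. Its processed signal had been background-corrected within each array and not scaled between arrays, and the table of the series was equal to it. Processed signals of non-control spots were divided by their array's 75th percentile and taken to log2. In counts over all probes, spots marked as non-uniform or population outliers were left out and replicate spots averaged. A probe was well above background when over 50% of its spots were. Where 1 array was not, the higher of the probe's signal and the lowest detected signal took its place, which makes the fold a lower bound. Errors of log2 ratios were propagated from the deposited signal errors. Every normexp fit used an offset of 50, a constant added to each corrected signal.

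Members, 11 gene lists and alternatives were chosen with earlier results of these data known. Named genes are all members, list genes with a probe 2-fold apart, the 2 genes of each list with the brightest SAS probe, detected probes within 1 Mb of the vanins, and probes next to VNN1 in the order of ratios. PPARA, PTPRC, ALB, NUDT19, KRT5, KRT17, CDH1 and TP63 were named outside this rule, and 1 result that meets it is not reported here. Of 16 member probes, 13 matched the RefSeq gene table by accession. Python 3.11.15 and R 4.3.3 with limma 3.58.1 were used. Counting was tested on simulated data, in which all changed probes were brighter than those of VNN1 on the SAS array. Dimmer probes and lower bounds were thus not covered. With 1 array per population, no test was made.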

Additional observations from a re-analysis of the deposited data

How the results depend on the processing

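As the mean of its probes, VNN1 was 3.47- to 10.5-fold higher in eSAS cells under the 16 alternatives. Some alternatives changed only the detection rules, the marked spots, the rows left out or the source table, and could not move this value. The pooled SD between replicate spots was 0.080 over all 211 replicated probes, of which 156 had signals over 500. For signals under 50 it was 0.25, so 0.080 is a narrow limit where signals are dim. The log2 ratio of VNN1 stayed within 0.080 in 10 of the 16, the alternatives that could not move it included. It was 3.00 and 2.96 under normexp with mean and with median pixels, 1.79 under normexp fitted without the spots of marked local background, 2.03 without background correction, 2.72 with the local background subtracted, which was chosen after seeing the data, and 3.39 with the brightest probe. Normexp on all spots moved the median of all probes to 0.53, and relative to it VNN1 stood at 2.47 and 2.43. The median of the coenzyme A enzymes was 0.65 in both those fits, 0.12 relative to the median of all probes, although single enzymes moved further, PANK4 to 1.56 and 1.54, and stayed within 0.080 of its value in the other 14. VNN2 and VNN3 gave no ratio under settings that kept the detection criterion, and as they stand their log2 differences were 0.045, and -0.83 and 0.27. Probes at least 2-fold higher numbered 520, and 11264, 11251, 86, 125, 250 and 1375 under normexp with mean pixels, with median pixels, without marked backgrounds, without correction, with both arrays detected and without a filter. Those at least 2-fold lower numbered 559, and 183, 177, 156, 161, 335 and 1536 in the same order, and 884 without the lower limit. The share of higher among called probes was 48.2%, and 98.4% and 35.5% under the normexp fits with and without marked backgrounds. The causes were not tested. A slide block was not fitted, as there was 1 slide. No paired analysis was possible because each population had 1 array. Low signal limits VNN1 on the SAS array and leaves VNN2, VNN3 and PANK1 without a fold.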

Other observations

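Coenzyme A is used by acyl-CoA synthetases and freed again by thioesterases. Of 15 such genes on the array, 13 were measured on both arrays, with a median log2 ratio of -0.017. None of their probes was 2-fold apart, which is near the share of all probes, 1.83% higher and 1.97% lower. ACOT9, a mitochondrial thioesterase, had the lowest mean of them, with log2 ratios of -0.78 and -0.60 on probes that read 10217 and 5718, and 1953 and 1237, for SAS and eSAS. ACSL3, a synthetase of lipid droplets, had -0.12 and 0.11. In glutathione synthesis, which draws on cysteine as PPCS does, GCLM, the regulatory subunit of glutamate-cysteine ligase, had -0.49 and -0.72 on probes that read 2599 and 1779, and 2715 and 1591. GSS, glutathione synthetase, read 11058 and 12126, a log2 ratio of 0.19.

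In the order of ratios over probes measured on both arrays, the probes next above VNN1 probe 1 were A2M, the broad protease inhibitor alpha-2-macroglobulin, at 21.2-fold (172 and 3514), and an unnamed transcript, ENST00000338711, at 38.4-fold (33.0 and 1219). Below it, SLC25A26, the mitochondrial carrier of S-adenosylmethionine, was at 8.98-fold (29.8 and 257). The spots of ENST00000338711 and SLC25A26 lie in rows 479 and 486, among the rows with uneven spots on the SAS array, and that of A2M lies in row 95.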
